A study of Homo sapiens with 29 samples.

Results

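DHL6 is a cell line grown from a human diffuse large B-cell lymphoma, a tumour of mature B lymphocytes. The comparison described here is between DHL6 cells after 24 h and after 6 h of R406, which blocks the tyrosine kinase SYK, given at 1 µM. It was chosen by the sample titles, which give 3 arrays for each time, 6 of the 29 arrays of the series, and it covers all 12165 genes measured. The series also holds DHL6 after 2 h and 48 h of R406 and in the solvent DMSO, and the same groups of a second lymphoma line, DHL4. All cells grew in RPMI medium with serum and glutamine, and total RNA was taken up in Trizol. No DMSO array enters the comparison, the DMSO arrays carry no time in their labels, and longer exposure to the drug and longer culture cannot be told apart. Whether replicate arrays stem from different cultures is not stated, so the scatter behind the p-values may be technical. That scatter was pooled over the replicate arrays of all 10 groups, 29 arrays, and not taken from the 6 compared arrays alone.

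SYK binds the phosphorylated tails of the B-cell receptor and passes its signal to phospholipase C and protein kinase C beta, to PI3 kinase and AKT, and to NF-kB. AKT holds the FOXO factors out of the nucleus, and FOXO factors in turn activate genes of growth arrest. ATF4 is a transcription factor made when amino acids run short or the endoplasmic reticulum is stressed, and it switches on amino acid synthesis and transport. Genes of the replication-dependent histone clusters are normally copied into RNA without a poly(A) tail during S phase, when DNA is replicated.

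Levels are log2 expression per probe set as the authors deposited it, and 1 unit is a 2-fold change. A gene was called when the limma adjusted p over all genes was below 0.05, and changes are given as the log2 difference of 24 h minus 6 h ± its standard error (SE). Means are of 3 arrays. A level below 3.5 is close to the low end of the arrays and is termed dim. Of 7 measured B-cell markers, 6 stood above the dim level. The exception was PAX5, whose probe set stood at 3.03 at 6 h and 2.59 at 24 h. None of 8 monocyte markers and none of 10 fibroblast and endothelial markers exceeded the dim level, and of 10 T-cell markers LCK alone did. The means of the monocyte list ran from 2.82 to 2.94 on the 6 h arrays and from 2.74 to 2.97 on the 24 h arrays. The third array at 6 h, replicate 3, stood apart. It correlated at r = 0.982 with each other 6 h array, against 0.995 between those, and 392 genes lay more than 1 log2 unit below the mean of the other arrays, while 62 lay as far above it. The 24 h arrays correlated at 0.992 to 0.993. Most counts that this array moves are given with and without it.

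Between 6 h and 24 h of R406, array signal in DHL6 rose for 17 of 41 replication-dependent histone genes, protein kinase C beta, SYK, SMAD1, ID2 and ID3. It fell for NF-kB targets such as CD83, for genes of amino acid synthesis and tRNA charging, and for the transcription factor IRF4. Limma called 401 genes higher at 24 h and 308 lower, which is 5.83% of the 12165 genes (3.30% higher and 2.53% lower). At least 2-fold changes were seen for 68 and 30 of them. The median change of all genes was 0.0046. The arrays of the 2 times did not overlap for 693 of the 709 called genes, and for 20.6% of all genes. Without 6 h replicate 3, 196 genes were called higher and 286 lower (1.61% and 2.35%). Of the 401 genes called higher, 188 were also called higher without it, and of the 308 called lower, 216 were also called lower. Replicate 3 was the lowest 6 h array for 300 of the 401, and for 46.0% of all genes.

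**Figure D1:**
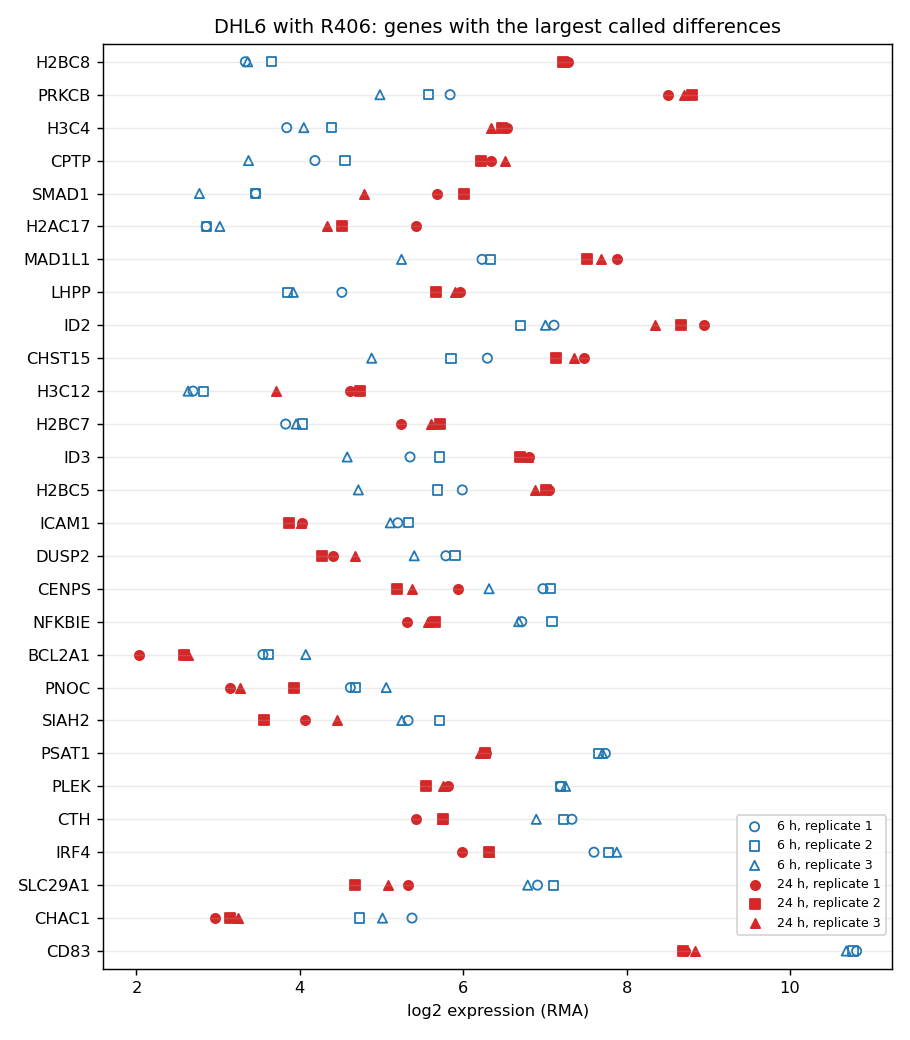
The log2 expression (horizontal axis) of the 14 genes with the largest called rises and the 14 with the largest called falls in DHL6, 1 row per gene, with open symbols for the 3 arrays at 6 h and filled symbols for the 3 arrays at 24 h. H2BC8 moved furthest to the right, from 3.33 to 3.65 at 6 h to between 7.23 and 7.28 at 24 h, and CD83 furthest to the left, and no row has overlapping times.

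The 14 largest rises ran from 1.52 to 3.80 and the 14 largest falls from -1.24 to -2.01. Histones made up 6 of the 14 rises, H2BC8, H3C4, H2AC17, H3C12, H2BC7 and H2BC5. The other rises were PRKCB, the ceramide-1-phosphate transfer protein CPTP, SMAD1, the spindle checkpoint gene MAD1L1, the phosphatase LHPP, ID2, the sulfotransferase CHST15 and ID3. The falls were CD83, CHAC1, the nucleoside transporter SLC29A1, IRF4, CTH, PLEK, PSAT1, the ubiquitin ligase SIAH2, the neuropeptide precursor PNOC, BCL2A1, NFKBIE, the centromere protein CENPS, DUSP2 and ICAM1. The highest adjusted p was 0.000953 among the rises (H2BC5) and 0.0136 among the falls (CENPS). Of these 28 genes PNOC alone lost its call without 6 h replicate 3, at -1.20 and limma adjusted p = 0.052, and it also lost it without 24 h replicate 1 or 3. CENPS lost its call without 6 h replicate 1 or 2 and without 24 h replicate 2 or 3, at -1.13 to -1.22 and limma adjusted p from 0.0534 to 0.0782. With only the 6 compared arrays in the fit, CENPS, CHST15 and H2BC5 were not called (limma adjusted p = 0.056, 0.0551 and 0.0523), and with the 15 DHL6 arrays PNOC was not (0.0546).

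The histone promoters are shown because the largest rises were of histone genes, and many of these share a short element. The octamer ATTTGCAT, the site read by POU factors such as OCT1, was looked for on both strands in windows of 300 bases, from 250 bases before to 50 after each start in RefSeq on GRCh38.p14. It stood in 19 of 38 histone genes with a window and in 10 of 15 that were called. Of all 35116 windows 1.77% held it, and of all 27305 genes with a window 2.19%. The octamer was chosen after the values were seen, and a match describes the letters only. Stretches of 68 bases are printed 5′ to 3′ on the gene's strand, with the octamer in capitals. H2BC8 lies on the minus strand at chr6:26216699-26216766, H3C4 on the minus strand at chr6:26199375-26199442, H2AC17 on the minus strand at chr6:27893246-27893313, and H2BC7 on the plus strand at the same position as H3C4, since the 2 genes share that promoter.
H2BC8: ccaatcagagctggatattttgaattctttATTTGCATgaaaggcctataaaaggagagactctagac
H3C4: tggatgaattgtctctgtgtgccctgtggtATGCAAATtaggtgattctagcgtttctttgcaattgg
H2AC17: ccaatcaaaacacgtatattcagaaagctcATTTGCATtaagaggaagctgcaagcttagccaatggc
H2BC7: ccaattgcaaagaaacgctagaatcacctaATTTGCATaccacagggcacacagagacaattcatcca

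The histones package DNA into nucleosomes, and H2A, H2B, H3 and H4 form its core. Of 41 measured genes of the replication-dependent clusters, 17 rose and 0 fell between 6 h and 24 h, with a list median of 0.41 beside 0.0046 over all genes. Without 6 h replicate 3 the counts were again 17 and 0. Of the 38 with a promoter window, 36 lay on chromosome 6 and 2 on chromosome 1. H2BC8, an H2B gene, read 3.33, 3.65 and 3.36 at 6 h and 7.28, 7.23 and 7.24 at 24 h. Its 6 h arrays lay at the dim end and its 24 h arrays close together far above them, a rise of 3.80 ± 0.34 or 13.9-fold (limma adjusted p = 1.43e-07). H3C4, an H3 gene, read 3.84, 4.39 and 4.05 at 6 h and 6.54, 6.48 and 6.34 at 24 h. Each 24 h array was higher than each 6 h array, and the rise was 2.36 ± 0.25. H2AC17, an H2A gene, read 2.85, 2.86 and 3.02 and then 5.42, 4.52 and 4.34, a rise of 1.85 ± 0.20 from dim values. H2BC7 read 3.83, 4.03 and 3.96 and then 5.24, 5.72 and 5.60, a rise of 1.58 ± 0.14. H3C12 rose by 1.64 ± 0.24, with 24 h replicate 3 (3.71) below the other arrays of that time (4.61 and 4.74). H2BC5 rose by 1.52 ± 0.27 overall and by 1.15 without 6 h replicate 3, its lowest array. The second probe sets of H2BC8 (2.30), H3C4 (1.46) and H2BC5 (1.91) were called in the same direction.

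**Figure D2:**
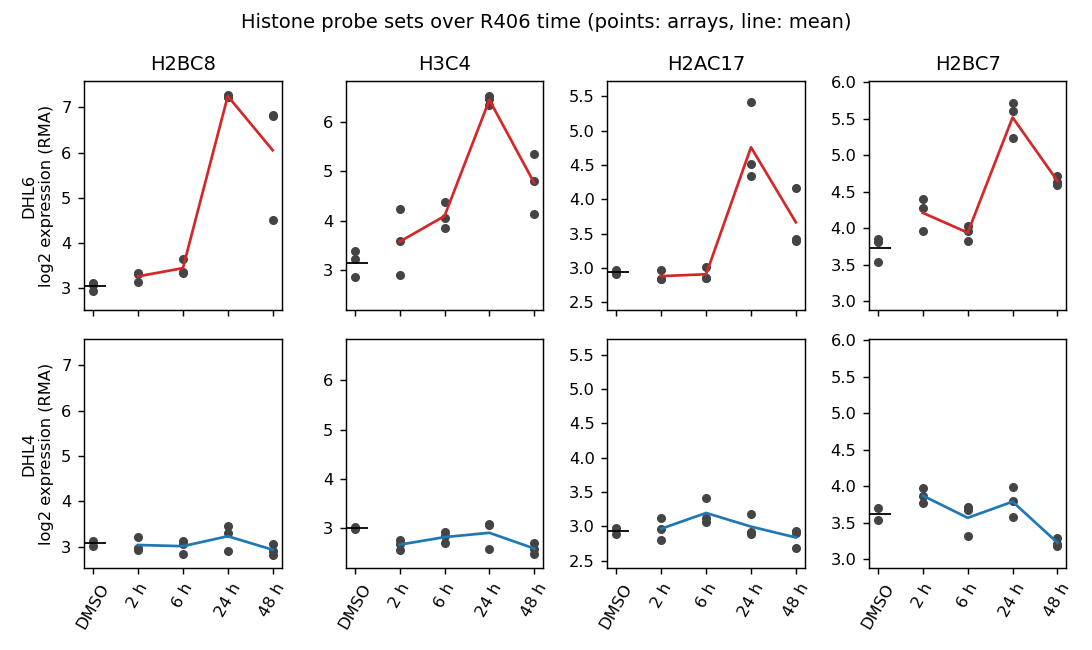
The log2 expression of 4 histone genes (columns) in DHL6 (upper row) and DHL4 (lower row) in DMSO and after 2, 6, 24 and 48 h of R406, with each array as a point, a line through the R406 means and a bar at the DMSO mean. In DHL6 the means of all 4 genes stood highest at 24 h and lower at 48 h, H2BC8 at 7.25 and 6.05. The 48 h arrays of H2BC8 were uneven, at 6.81, 4.51 and 6.84, so replicate 2 lowered that mean. In DHL4 the means at 6 h and 24 h differed by at most 0.22.

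Of the 17 called histone genes, 12 had a 6 h mean below 3.5, where RMA values are compressed, so their changes may be understated. Histone genes of 1 class are near-identical copies, and a probe set may read several of them, so the gene named is uncertain. Whether the amount of histone RNA changed, or the share of it with a poly(A) tail, was not tested. Paired genes that share a promoter did not all move alike. H2AC8, chosen here after its values were seen, rose by 1.34 with its partner H2BC8, and H2BC7 rose with H3C4. In the pairs H2AC13 with H2BC13, H2AC14 with H2BC14 and H2AC17 with H2BC17, only the H2A gene was called, at 0.90, 0.99 and 1.85, beside 0.13, 0.0023 and 0.22 for the H2B genes. Neither gene of the pair H2AC11 and H2BC11 was called (0.12 and -0.0046). These pairs were also chosen after their values were seen. The mean of all 41 histone genes, relative to DMSO, was 0.09 at 6 h (arrays from 0.06 to 0.14) and 0.78 at 24 h (0.74 to 0.84). It was 0.18 at 2 h and 0.51 at 48 h, all against the same DMSO arrays. In DHL4 the same step called 2 of the 41 genes higher and 0 lower, beside 8.75% and 13.5% of all genes. The change differed between the lines for 12 of the 41 genes, all with the larger value in DHL6, beside 7.50% of all genes.

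DNA replication genes moved the other way. Of 37 DNA replication genes, 0 rose and 8 fell (7 without 6 h replicate 3), with a median of -0.41. GINS1, a subunit of the replicative helicase, read 7.80, 7.72 and 7.27 at 6 h and 6.90, 6.93 and 6.74 at 24 h. The times did not overlap, and GINS1 fell by 0.74 ± 0.17 (limma adjusted p = 0.00815). PCNA, the sliding clamp of DNA polymerase, read 9.97, 9.80 and 9.87 and then 9.27, 9.30 and 9.30, a change of -0.59 ± 0.12. RFC3, a clamp loader subunit, changed by -0.58 ± 0.10 and RPA3, of the single-strand binding complex, by -0.54 ± 0.14. MCM4 (-0.47 ± 0.16), another helicase subunit, and the loading factor CDC6 (-0.12 ± 0.26) were not called. In nucleotide synthesis 4 of 24 genes fell and 0 rose, the thymidylate synthase TYMS by 0.68 ± 0.16, the purine enzyme GART by 0.55 ± 0.14, and DCTPP1 and PRPS2 by 0.53 each. RRM2, a ribonucleotide reductase subunit, was not called on the probe set used (-0.52 ± 0.16, limma adjusted p = 0.0604). Another RRM2 probe set was called lower (-0.68).

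Promoters of 3 replication genes are shown because their factor family is known from cell cycle work and because these genes fell while the histones rose. E2F sites were searched as TTTGGCGC, TTTCCCGC or TTTGGCGG on both strands. They stood in 19 of 30 replication genes with a window and in 5 of 7 called ones. Of all windows 2.89% held such a site, and of all genes with a window 3.5%. The site is in capitals. GINS1 lies on the plus strand at chr20:25407648-25407715, PCNA on the minus strand at chr20:5126644-5126711 and MCM7, a helicase subunit chosen after its values were seen, on the minus strand at chr7:100101547-100101614. MCM7 changed by -0.48 ± 0.10.
GINS1: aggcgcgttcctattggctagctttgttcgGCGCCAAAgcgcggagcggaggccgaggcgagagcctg
PCNA: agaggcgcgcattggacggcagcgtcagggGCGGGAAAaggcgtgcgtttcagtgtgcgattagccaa
MCM7: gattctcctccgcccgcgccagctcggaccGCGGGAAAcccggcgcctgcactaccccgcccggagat

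Among regulators of S phase, 1 of 17 rose and 2 fell (1 and 1 without 6 h replicate 3). E2F3 rose by 0.61 ± 0.13, TFDP1, the partner of E2F proteins, fell by 0.50 ± 0.10, and MYBL2 fell by 0.62 ± 0.18 with its call lost without 6 h replicate 3 (limma adjusted p = 0.156). E2F1 stood at 5.11 at both times. Of 43 mitosis genes 0 rose and 5 fell, and the median was -0.26. CDK1, the kinase that drives entry into mitosis, read 8.52, 8.42 and 8.09 at 6 h and 7.49, 7.41 and 7.39 at 24 h. All 3 later arrays lay below the earlier ones, and the fall was 0.91 ± 0.13 (limma adjusted p = 8.60e-05). The Aurora kinases AURKB and AURKA fell by 0.53 ± 0.12 and 0.50 ± 0.12. MKI67, the proliferation antigen Ki-67, read 8.69, 8.76 and 8.72 and then 8.08, 8.27 and 8.22, a fall of 0.54 ± 0.11. Its other 3 probe sets, at -0.27 to -0.69, were not called. CCNB1 (-0.09), PLK1 (-0.08), CDC20 (0.12) and TOP2A (-0.22) were not called on the probe sets used, but another TOP2A probe set was called lower (-0.46). CHR elements, TTTGAA or TTTAAA on both strands, stood in 30 of 35 mitosis genes with a window. Of all windows 24.0% held such an element, and of all genes with a window 27.9%. CDK4, the G1 kinase, fell by 0.92 ± 0.11, the 1 called gene of 9 G1 cyclins and CDKs, while CCND2 lay in the dim range (3.16 and 3.22). In DNA repair 1 of 21 measured genes rose and 2 fell, beside 3.30% and 2.53% of all genes. The exonuclease EXO1 fell by 0.98 ± 0.19, XRCC5 fell by 0.31 and the checkpoint kinase ATM rose by 0.91 ± 0.16. The XRCC5 call was lost without 6 h replicate 3.

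In DHL4 the replication and mitosis lists fell further over the same step. There 2712 genes were called, 22.3% of all, with 1065 higher (8.75%) and 1647 lower (13.5%). In DHL4 34 of 37 replication genes and 42 of 43 mitosis genes were called lower, with medians of -1.49 and -1.53, against 8 and 5 in DHL6. The difference of the lines was called for 27 of the 37 and 42 of the 43, all with the higher value in DHL6. Over all genes the difference was called for 1366 (11.2%), 912 with the higher value in DHL6 (7.50%) and 454 with the lower (3.73%). MKI67 fell by 1.99 in DHL4, and the difference from DHL6 was 1.45 ± 0.15 (limma adjusted p = 2.47e-07).

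**Figure D3:**
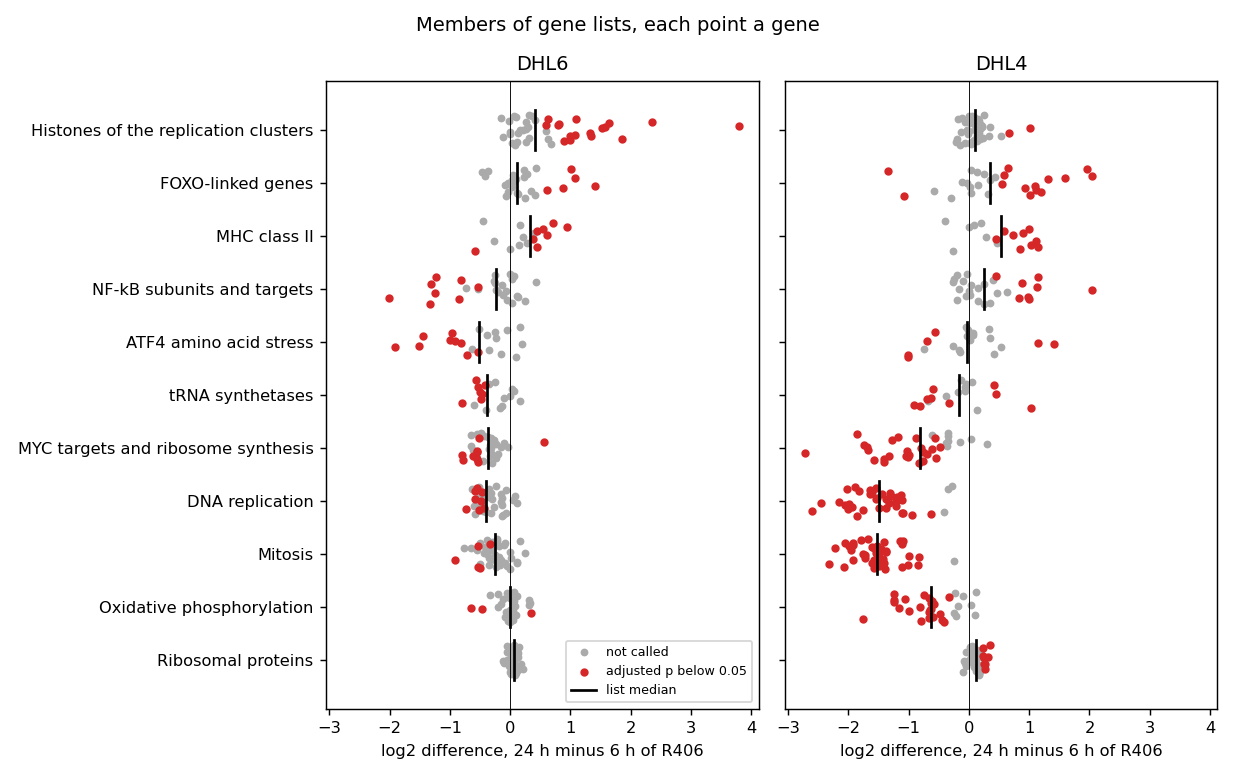
The log2 difference of 24 h minus 6 h of R406 (horizontal axis) for each measured member of 11 gene lists (rows), in DHL6 on the left and DHL4 on the right, with called genes in red, other genes in grey and the list median as a black bar. Histones reach 3.80 in DHL6 and 1.01 in DHL4, where 2 of 41 were called and the median is 0.10, while replication and mitosis genes sit near -0.41 and -0.26 in DHL6 and near -1.49 and -1.53 in DHL4.

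Nucleolar genes fell modestly. Of 34 genes among MYC targets and in ribosome synthesis, 9 fell and 1 rose, with a median of -0.36, and the counts were the same without 6 h replicate 3. Nucleolin, NCL, which organises the nucleolus, read 10.50, 10.41 and 10.46 at 6 h and 9.67, 9.71 and 9.61 at 24 h. It was lower on every later array, by 0.79 ± 0.10 (limma adjusted p = 1.06e-05). The RNA helicase DDX21 changed by -0.79 ± 0.11, MRTO4, a ribosome assembly factor, by -0.62 ± 0.12, and GAR1, of the box H/ACA particle, by -0.56 ± 0.15. POLR1D, a subunit shared by RNA polymerases I and III, rose by 0.56 ± 0.10. NPM1 (-0.15) and NOP56 (-0.31) were not called. The E-box CACGTG, searched on both strands, stood in 13 of 29 of these genes with a window and in 5 of 8 called ones. Of all windows 7.26% held it, and of all genes with a window 8.77%. MYC itself read 10.43, 10.47 and 10.39 and then 10.36, 10.32 and 10.29, with a difference of -0.11 ± 0.07 that was not called (limma adjusted p = 0.516). MYC stood at 9.32 in DMSO and 10.28 at 2 h, arrays outside the comparison. In the MAX network around MYC, the antagonist MXD4 rose by 0.77 ± 0.14 and MYCL by 0.60 ± 0.15, from a dim 6 h mean of 2.98, of 12 genes. None of 35 ribosomal protein genes was called, with a median of 0.06 and 2 genes at an unadjusted limma p below 0.05.

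Genes of polyamines, translation and nuclear transport shared the downward direction. ODC1, the first enzyme of polyamine synthesis, fell by 0.64 ± 0.14, SRM by 0.87 ± 0.23 and the catabolic enzyme SAT1 by 0.46 ± 0.11, of 9 genes in the list, and SRM lost its call without 6 h replicate 3 (limma adjusted p = 0.0892). Of 27 translation factors 4 fell and 0 rose. EIF4EBP1, a repressor of cap-dependent translation, fell by 0.83 ± 0.12 and EIF4A3 by 0.75 ± 0.12. EIF2S2 fell by 0.43 ± 0.10 and EIF5A by 0.59 ± 0.16, the latter not called without 6 h replicate 3. Of 19 nuclear import and export genes 6 fell and 0 rose. XPOT, which exports tRNA, fell by 0.89 ± 0.15, the nuclear pore proteins NUP107 and NUP205 by 0.66 ± 0.09 and 0.61 ± 0.17, and RANBP1, a regulator of the RAN cycle, by 0.64 ± 0.16. Of 30 splicing factors 7 fell and 2 rose, but only 3 and 0 without 6 h replicate 3. SRSF1 and SRSF2, which bind exonic enhancers, fell by 0.42 ± 0.09 and 0.41 ± 0.08, and U2AF2, which recognises the 3′ splice site, by 0.66 ± 0.13. All 3 were among those called in both fits.

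Genes of the ATF4 response stood lower at 24 h than at 6 h. Of 20 measured genes of the ATF4 amino acid stress list 9 fell and 0 rose (10 and 0 without 6 h replicate 3), with a median of -0.52. CHAC1, which degrades glutathione, read 5.37, 4.73 and 5.01 at 6 h and 2.96, 3.15 and 3.25 at 24 h. The later arrays were all in the dim range, so the change of -1.92 ± 0.22 (limma adjusted p = 5.36e-06) may be understated. CTH, which makes cysteine from cystathionine, read 7.33, 7.23 and 6.89 and then 5.43, 5.75 and 5.75. The times stood apart by more than 1 unit, with a fall of 1.51 ± 0.21, and the other CTH probe set fell by 1.57. PSAT1, of serine synthesis, read 7.74, 7.65 and 7.70 and then 6.27, 6.27 and 6.20, a change of -1.45 ± 0.21. PCK2, the mitochondrial enzyme that makes phosphoenolpyruvate, changed by -0.99 ± 0.18. The other called members, named after their values were seen, were PYCR1 (-0.96), MTHFD2 (-0.92), DDIT4 (-0.81), ASNS (-0.72) and ATF4 itself (-0.53 ± 0.09). DDIT3 (0.20), ATF3 (-0.16) and TRIB3 (-0.51), also tied to the stress response, were not called.

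CHAC1 and ASNS promoters are shown because these genes of amino acid stress hold the letters of an amino acid response element. The element was searched as TGATGNAA on both strands, chosen after the values were seen. It stood in 4 of 17 ATF4-list genes with a window (2 of 8 called ones, the genes shown). For tRNA synthetase genes this was 7 of 15 (5 of 6 called ones). Of all windows 3.62% held it, and of all genes with a window 4.46%. CHAC1 is on the plus strand at chr15:40953232-40953299 and ASNS on the minus strand at chr7:97872439-97872506, with the element in capitals.
CHAC1: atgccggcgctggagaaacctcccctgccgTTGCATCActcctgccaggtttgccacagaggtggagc
ASNS: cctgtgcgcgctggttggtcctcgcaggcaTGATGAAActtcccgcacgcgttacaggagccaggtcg

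The tRNA synthetases, which load amino acids onto tRNA, fell for 7 of 18 genes and rose for 0, with a median of -0.38 and the same counts without 6 h replicate 3. GARS1, for glycine, read 11.12, 11.12 and 11.09 at 6 h and 10.23, 10.31 and 10.37 at 24 h. The arrays of each time lay close together, and the fall was 0.81 ± 0.09 (limma adjusted p = 2.26e-06). YARS1 fell by 0.57 ± 0.10, SARS1 by 0.54 ± 0.09 and NARS1 by 0.50 ± 0.11. Of 12 amino acid transporters 3 fell and 0 rose (4 and 0 without 6 h replicate 3). SLC7A5, the large neutral amino acid transporter LAT1, read 8.45, 8.52 and 8.23 and then 7.26, 7.44 and 7.57, a fall of 0.97 ± 0.17. SLC7A1, for cationic amino acids, fell by 0.83 ± 0.10, and SLC1A5, for glutamine, by 0.80 ± 0.18. Relative to DMSO the mean of the ATF4 list was 0.42 at 2 h, 0.56 at 6 h, -0.03 at 24 h and -0.48 at 48 h, on arrays that share the DMSO group. The synthetases followed at 0.05, 0.22, -0.09 and -0.35. In DHL4 the ATF4 list had 2 genes called higher and 4 lower, beside 8.75% and 13.5% of all genes, and its median was -0.026. The line difference was called for 8 of the 20, with 7 lower in DHL6 and 1 higher, beside 11.2% of all genes.

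NF-kB feedback genes fell with CD83 in the lead. Of 27 measured subunits and targets 8 fell and 0 rose (9 and 0 without 6 h replicate 3), with a median of -0.23. CD83, a surface marker of activated B cells, read 10.81, 10.77 and 10.69 at 6 h and 8.72, 8.69 and 8.84 at 24 h. The fall of 2.01 ± 0.12, or 4.03-fold, was many times the spread of either time (limma adjusted p = 7.55e-11). NFKBIE, an inhibitor of NF-kB and one of its targets, read 6.72, 7.09 and 6.68 and then 5.31, 5.65 and 5.57, a fall of 1.32 ± 0.20. ICAM1, an adhesion molecule, read 5.20, 5.33 and 5.11 and then 4.03, 3.87 and 4.02, a fall of 1.24 ± 0.18, with 1 of 2 other probe sets called. BCL2A1, a survival protein, read 3.55, 3.61 and 4.07 and then 2.03, 2.59 and 2.63, so the fall of 1.33 ± 0.22 ended in the dim range. CD40, the receptor of T-cell help, fell by 0.84 ± 0.14, and its 3 other probe sets were called in the same direction. The other called members, named after their values were seen, were TNFAIP3 (-1.23), RELB (-0.81) and NFKBIA (-0.54 ± 0.11). The subunit NFKB1 (-0.53 ± 0.22, limma adjusted p = 0.187), RELA (-0.26) and REL (0.43) were not called, and NFKB2 (-0.73, limma adjusted p = 0.0708) was called only without 6 h replicate 3 (-1.06, limma adjusted p = 0.00535).

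**Figure D4:**
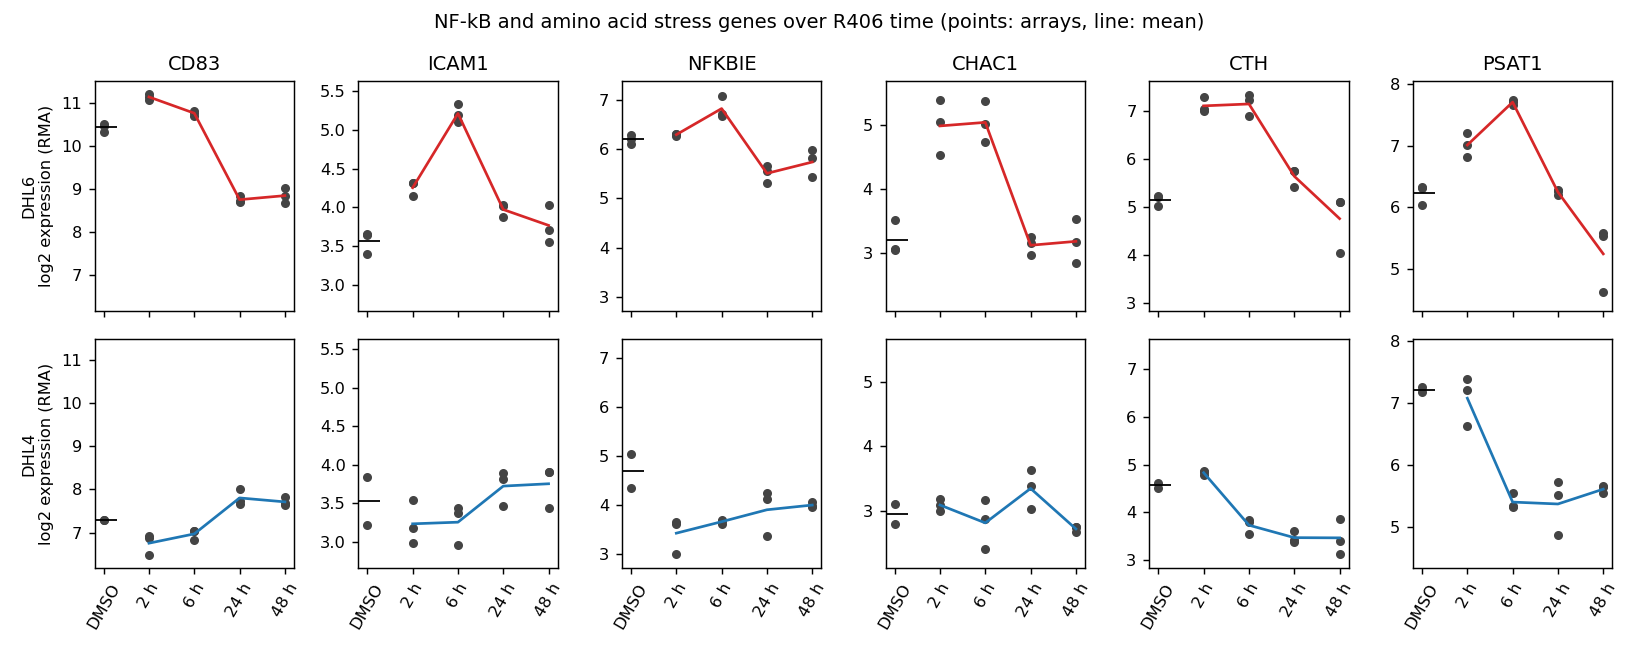
The log2 expression of 3 NF-kB genes (CD83, ICAM1, NFKBIE) and 3 amino acid stress genes (CHAC1, CTH, PSAT1) in DHL6 (upper row) and DHL4 (lower row) in DMSO and after 2, 6, 24 and 48 h of R406, with arrays as points and a line through the R406 means. In DHL6 CHAC1, CTH and PSAT1 stood above DMSO at 2 h and 6 h and fell by 24 h, and CD83 fell from 10.76 at 6 h to 8.75 at 24 h, while in DHL4 CD83 went from 6.97 to 7.80.

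The NF-kB list moved the other way in DHL4, with 8 genes called higher, 0 lower and a median of 0.24. Of all genes 8.75% were called higher in DHL4 and 13.5% lower. The line difference was called for 11 of 27 genes, all lower in DHL6, beside 3.73% of all genes. CD83 rose by 0.84 in DHL4 and the difference was -2.84 ± 0.17, and for TNFAIP3 and NFKBIA it was -2.38 and -1.66. Relative to DMSO the DHL6 mean of the list was 0.17 at 2 h, 0.24 at 6 h, -0.18 at 24 h and -0.39 at 48 h.

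Receptor signalling genes changed at a few points of the pathway. PRKCB, protein kinase C beta, read 5.84, 5.57 and 4.98 at 6 h and 8.51, 8.80 and 8.71 at 24 h. Every 24 h array lay more than 2 units above every 6 h array, with a rise of 3.21 ± 0.23 or 9.22-fold (limma adjusted p = 2.60e-09), and a second probe set rose by 2.67. SYK, the target of R406, read 6.85, 6.85 and 6.39 and then 7.93, 7.73 and 7.65. The rise was 1.07 ± 0.17 (limma adjusted p = 0.000314), with a mean of 5.16 in DMSO, and a dim second probe set (0.04) was not called. These were the 2 called rises of 26 receptor signalling genes, beside 3.30% of all genes, and without 6 h replicate 3 there were 3. The fallers were RASGRP3 (-0.45 ± 0.10) and RASGRP1 (-0.40 ± 0.12), which activate RAS. BTK (0.40), BLNK (0.30), LYN (0.27), PLCG2 (0.24) and CD79B (0.31) were positive and not called. The step of PRKCB in DHL4 was 3.86, and the line difference was -0.65 ± 0.32 (limma adjusted p = 0.252). Among inhibitory receptors and phosphatases, PTPRC, the phosphatase CD45, rose by 0.64 ± 0.09 and the ubiquitin ligase CBLB by 0.61 ± 0.17, of 18 genes, and CBLB lost its call without 6 h replicate 3.

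Of 20 PI3 kinase and AKT genes 4 rose (3 without 6 h replicate 3), and of 27 FOXO-linked genes 5 rose. PIK3IP1, which inhibits PI3 kinase, read 5.06, 4.94 and 4.15 at 6 h and 6.01, 5.93 and 5.45 at 24 h. Replicate 3 was lowest at both times, and the rise was 1.08 ± 0.22, or 0.79 without 6 h replicate 3. TCL1A and TCL1B, coactivators of AKT, rose by 0.80 ± 0.13 and 0.81 ± 0.22, and TCL1B lost its call without 6 h replicate 1 (0.74) or 2 (0.80). These 3 and PDCD4 (0.46) were the called PI3 kinase and AKT genes, and none fell. PDCD4 lost its call without 6 h replicate 3 (limma adjusted p = 0.0961). Among the FOXO-linked genes 0 fell (4 rose and 0 fell without 6 h replicate 3), and the median was 0.11. GADD45A, a stress sensor of growth arrest, read 6.51, 6.21 and 5.74 and then 7.68, 7.84 and 7.15. The times did not overlap, and the rise was 1.40 ± 0.23 (limma adjusted p = 0.000436). TRIB2, a pseudokinase, rose by 1.01 ± 0.23 and FOXO1 by 0.61 ± 0.12. FOXO3 rose by 0.88 ± 0.25, but by 0.51 without 6 h replicate 3 and then without a call. CDKN1B, the CDK inhibitor p27, read 4.53, 4.28 and 3.67 and then 4.47, 4.15 and 3.74. Its arrays overlapped fully, with -0.04 ± 0.26 (limma adjusted p = 0.97), and the line difference was -1.24 ± 0.37 with a DHL4 rise of 1.20. TXNIP (0.44) was not called and KLF2 was dim at both times. Among 18 CDK inhibitors and arrest genes, 3 rose (2 without 6 h replicate 3) and 1 fell. CEBPD rose by 1.16 ± 0.26 from dim values and CEBPB, its relative, fell by 0.74 ± 0.17.

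A few death-promoting members of the BCL2 family rose and a few survival members fell. HRK, a death-promoting BH3 protein, read 6.24, 7.29 and 7.26 at 6 h and 7.74, 7.32 and 8.04 at 24 h. The lowest 24 h array lay just above the highest 6 h array, and the rise of 0.77 ± 0.23 was just called (limma adjusted p = 0.0439), beside 4.62 in DMSO and 7.08 at 2 h. Its 2 other probe sets (-0.05 and 0.09) were at or near the dim level and not called. BIK rose by 0.95 ± 0.25 with overlapping arrays, and BAD by 0.65 ± 0.19, making 3 of 12 death-promoting genes. Without 6 h replicate 3 HRK alone was called, but without 6 h replicate 1 its rise was 0.43 and not called (limma adjusted p = 0.29). BCL2L11 (0.25), the protein BIM, was not called. Of 11 survival genes 2 fell, BCL2A1 as above and BCL2L1, the protein BCL-XL. BCL2L1 read 5.27, 5.47 and 5.15 and then 4.0, 4.73 and 3.89, a fall of 1.09 ± 0.24 (limma adjusted p = 0.00552), with its other probe sets at -0.47 and -0.41 and not called. MCL1 (-0.12) was not called, and BCL2 lay in the dim range. Of 21 p53 targets only the death receptor TNFRSF10B was called, at 0.88 ± 0.26, beside 5.83% of all genes. Its call was lost without 6 h replicate 3 (0.45).

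SMAD1, ID2 and ID3 rose, and the other 17 of 20 TGF-beta and SMAD genes were not called. SMAD1, which passes on bone morphogenetic protein signals, read 3.46, 3.46 and 2.77 at 6 h and 5.68, 6.00 and 4.79 at 24 h. The change from dim to clear values was 2.26 ± 0.28, or 4.80-fold, while a second probe set stayed dim (0.14, not called). ID2, an inhibitor of basic helix-loop-helix factors, read 7.11, 6.70 and 7.01 and then 8.94, 8.67 and 8.35, a rise of 1.71 ± 0.25. ID3 read 5.35, 5.71 and 4.58 and then 6.80, 6.69 and 6.79, a rise of 1.55 ± 0.19, or 1.23 without 6 h replicate 3. ID3 stood at 8.09 in DMSO and 6.12 at 2 h, so its 24 h level was below that of DMSO. None of the 20 fell. ID1 (0.30) and SMAD7 (-0.13) lay in the dim range.

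Transcription factors of B-cell fate moved in both directions. IRF4, which drives plasma cell differentiation, read 7.60, 7.78 and 7.88 at 6 h and 5.98, 6.32 and 6.31 at 24 h. No array of the later time came near the earlier ones, a fall of 1.55 ± 0.26 (limma adjusted p = 0.00048), to the level of DMSO (6.30). Its 2 other probe sets, at -0.37 and -0.11, were not called. MYB fell by 1.13 ± 0.23 into the dim range, with a second dim probe set at -0.06. PRDM1, the plasma cell regulator BLIMP1, was dim at both times (2.94 and 2.57). BCL6, the germinal centre repressor, read 9.02, 9.12 and 8.54 and then 9.43, 9.28 and 9.27. The rise of 0.43 ± 0.12 rested on 6 h replicate 3, and without it was 0.26 (limma adjusted p = 0.253). BACH2 (0.39 ± 0.15, limma adjusted p = 0.134) was not called, at 7.23 and 7.62, beside 8.83 at 2 h. In all, 5 of 25 identity factors rose and 3 fell, or 3 and 2 without 6 h replicate 3. BCL11A (0.70) and RUNX3 (-0.73) were called only with that array. EZH2, the H3K27 methyltransferase, fell by 0.67 ± 0.10, its second probe set at 0.05 not being called.

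Surface and plasma cell genes rose in part. CD38 read 8.20, 8.23 and 7.95 at 6 h and 9.17, 9.19 and 9.24 at 24 h, an increase of 1.07 ± 0.10 (limma adjusted p = 6.35e-07) on tightly grouped arrays. CD27, a receptor of memory B cells, rose by 0.60 ± 0.12 and MZB1, a chaperone of antibody assembly, by 0.65 ± 0.14. In all 4 of 17 plasma cell genes rose and 2, IRF4 and PRDM1, fell (3 and 2 without 6 h replicate 3). XBP1 (0.24) and JCHAIN (0.34) were not called. Of 22 surface receptors 4 rose, or 3 without 6 h replicate 3. They were led by IL10RA, the interleukin 10 receptor, at 1.36 ± 0.23, with CD52 (0.55 ± 0.10) and CD53 (0.48 ± 0.08). CD83 and CD40 were the 2 that fell. LCK, a SRC family kinase listed as a T-cell marker, fell by 1.10 ± 0.21 from 6.51, and a second probe set was called too (-0.95). MS4A1 (0.10) and CD79A (0.09), which mark B cells, were not called.

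Antigen presentation and interferon genes rose for a minority. Of 16 MHC class II genes 7 rose and 1 fell, with a median of 0.33, but without 6 h replicate 3 the counts were 4 and 0. HLA-DRB1, a beta chain, read 9.25, 9.41 and 9.33 at 6 h and 9.84, 9.96 and 9.84 at 24 h, a rise of 0.55 ± 0.10. HLA-DRB4 rose by 0.95 ± 0.14, although HLA-DRB genes are close copies and probes may cross-react. HLA-DQA1 (0.61), RFXANK (0.71) and the falling invariant chain CD74 (-0.59) were called only with 6 h replicate 3. CIITA, the class II transactivator, was dim at 3.13 at both times. Relative to DMSO the list mean was -0.52 at 6 h and -0.27 at 24 h, so it stayed below DMSO. None of 14 MHC class I genes was called, with 3 at an unadjusted limma p below 0.05. Of 43 interferon response genes 6 rose and 0 fell (4 and 0 without 6 h replicate 3), with a median of 0.036. TRIM22 rose by 1.01 ± 0.15, SP110 by 0.97 ± 0.15 and MX2, a restriction factor, by 0.93 ± 0.15. OAS1 rose by 1.03 ± 0.28 only with that array.

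Some lipid, chaperone and energy genes fell, each by less than 1 log2 unit, beside 2.53% of all genes called lower. The medians of the oxidative phosphorylation, glycolysis and fatty acid synthesis lists were -0.0013, -0.032 and 0.018, beside 0.0046 over all genes. Of 16 cholesterol synthesis genes 5 fell and 0 rose (3 and 0 without 6 h replicate 3). HMGCS1, which makes the precursor of mevalonate, read 7.62, 7.56 and 7.64 at 6 h and between 6.89 and 7.0 at 24 h. It was lower on all 3 later arrays, by 0.64 ± 0.14 (limma adjusted p = 0.00585), while its second probe set (-0.54) was not called. HMGCS1 stood at 9.14 in DMSO and 7.94 at 2 h. DHCR7, the last enzyme of the pathway, fell by 0.79 ± 0.21, a call lost without 6 h replicate 1 (-0.75) or 2 (-0.70). SQLE fell by 0.46 ± 0.11 on the probe set used, but another of its probe sets was called in the opposite direction (0.41). SCD, the stearoyl-CoA desaturase, fell by 0.68 ± 0.13, the 1 called gene of 13 in fatty acid synthesis, and FASN (-0.57) was not called. Of 19 heat shock chaperones 5 fell and 0 rose, TRAP1 by 0.84 ± 0.14, HSPA8 by 0.68 ± 0.11 and both DNAJA1 and HSP90AB1 by 0.39. In the endoplasmic reticulum HSP90B1 alone of 20 genes was called, at 0.42 and lost without 6 h replicate 3, and HSPA5 (0.27) was not. Cytochrome c, CYCS, fell by 0.65 ± 0.11 and CYC1, of complex III, by 0.47 ± 0.09, 2 falls beside 1 rise in 31 oxidative phosphorylation genes (3 and 0 without 6 h replicate 3). In glycolysis 2 of 20 genes rose and 1 fell (1 and 0 without 6 h replicate 3), PFKM, a phosphofructokinase, by 0.77 ± 0.17. Of 19 TCA and mitochondrial import genes 4 fell and 0 rose (2 and 0 without 6 h replicate 3). OGDH, a TCA enzyme, fell by 0.74 ± 0.17, and TIMM10, of mitochondrial import, by 0.56 ± 0.13.

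Of 36 autophagy and lysosome genes 2 were called, a share near the 5.83% of all genes. GABARAP, which coats autophagosomes, rose by 0.45 ± 0.08 and RUBCNL by 0.55 ± 0.11. PLEK, pleckstrin, a target of protein kinase C, read 7.19, 7.19 and 7.25 at 6 h and 5.81, 5.55 and 5.75 at 24 h. The fall was 1.51 ± 0.26 (limma adjusted p = 0.000514), beside a level of 8.01 in DMSO, and a second probe set changed by -1.21. LCP1, which bundles actin, fell by 0.93 ± 0.15 and beta-actin, ACTB, by 0.36 ± 0.09. Of 24 actin genes these 3 fell and 3 rose, WAS, KANK2 and ADD3, and without 6 h replicate 3 none of those 3 rises was called. DUSP2, a phosphatase that switches off ERK, read 5.79, 5.90 and 5.40 and then 4.41, 4.27 and 4.67, a fall of 1.24 ± 0.24, the 1 call in 13 ERK feedback genes. Of 20 immediate early genes 2 rose and 2 fell, beside 3.30% and 2.53% of all genes. JUN rose by 0.86 ± 0.16 from dim values, while its other probe sets (0.33, 0.10 and 0.23) were not called. IER5 fell by 0.68 ± 0.18, a call lost without 6 h replicate 1 (-0.59) or 2 (-0.64). FOS, dim throughout, and IER2 lost their calls without 6 h replicate 1 and also without replicate 3. EGR1 (-0.89 ± 0.29, limma adjusted p = 0.0754) was not called.

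Of the 59 gene lists, 11 held no called member. Besides the ribosomal proteins, MHC class I, and the B-cell, monocyte, and fibroblast and endothelial markers, these were the CCT chaperonin with 8 genes, sterol control and efflux with 14, aryl hydrocarbon receptor targets with 8, NRF2 targets with 12, hypoxia genes with 13 and the kynurenine pathway with 7. At an unadjusted limma p below 0.05 these last 6 lists held 2, 0, 1, 2, 2 and 2 genes. With 6 h replicate 3 left out, 1 B-cell marker was called higher and 1 NRF2 target lower. KMO, of the kynurenine pathway, read 4.65, 4.43 and 4.08 at 6 h and 3.76, 3.21 and 3.28 at 24 h. The difference of -0.97 ± 0.40 was not called (limma adjusted p = 0.187), and KMO stood at 8.40 in DMSO.

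The same step in DHL4, on arrays not shared with DHL6, showed which changes differed by line. Of the 709 genes called in DHL6, 213 were also called higher and 203 also called lower in DHL4, and 35 were called in opposite directions (22 higher in DHL6 and 13 lower). The line difference was called for 245 of the 709. The largest differences upward in DHL6 were those of H2BC8 (3.58 ± 0.48), DEPTOR (2.92 ± 0.18), an mTOR inhibitor, MTHFD1 (2.72 ± 0.25), a folate enzyme, SOX4 (2.72 ± 0.33), HTR3A (2.62 ± 0.20) and ASF1A (2.54 ± 0.37), a histone chaperone. DEPTOR, MTHFD1 and HTR3A were not called in DHL6 (0.40, -0.12 and 0.23) and fell in DHL4 by 2.52, 2.84 and 2.39. HTR3A was dim at both times in DHL6 (2.84 and 3.07), so its line difference measures DHL4. SOX4 and ASF1A rose in DHL6 by 1.05 and 1.01 and fell in DHL4 by 1.67 and 1.53. Without 6 h replicate 3 these 2 rises, at 0.85 and 0.77, were not called (limma adjusted p = 0.0511 and 0.136). Of the other 4 SOX4 probe sets 2 were called higher in DHL6, at 2.94 and 1.79, and 2 were not called (0.16 and 0.30), while the 2 other ASF1A probe sets (0.39 and 0.45) were not called.

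The largest differences downward were those of DEPP1 (-5.58 ± 0.41), CD69 (-3.85 ± 0.28), MYB (-3.53 ± 0.33), PECAM1 (-3.47 ± 0.22), APOD (-3.35 ± 0.39) and TSC22D3 (-3.31 ± 0.25). DEPP1, CD69 and PECAM1 were dim at both times in DHL6 and rose in DHL4 by 5.52, 3.74 and 3.48, so their line difference measures DHL4. APOD, a lipid-binding apolipoprotein, rose in both, from 7.05 to 8.41 in DHL6 and by 4.71 in DHL4. TSC22D3, the glucocorticoid-induced leucine zipper, fell in DHL6 by 0.61 ± 0.18, a call lost without 6 h replicate 1 (-0.56) or 2 (-0.49), and rose in DHL4 by 2.70. MYB fell in DHL6 and rose in DHL4 by 2.40. For PRKCB, CPTP, SMAD1, LHPP, ID2, CHST15 and SYK, which rose in both lines, the line difference was not called.

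**Figure D5:**
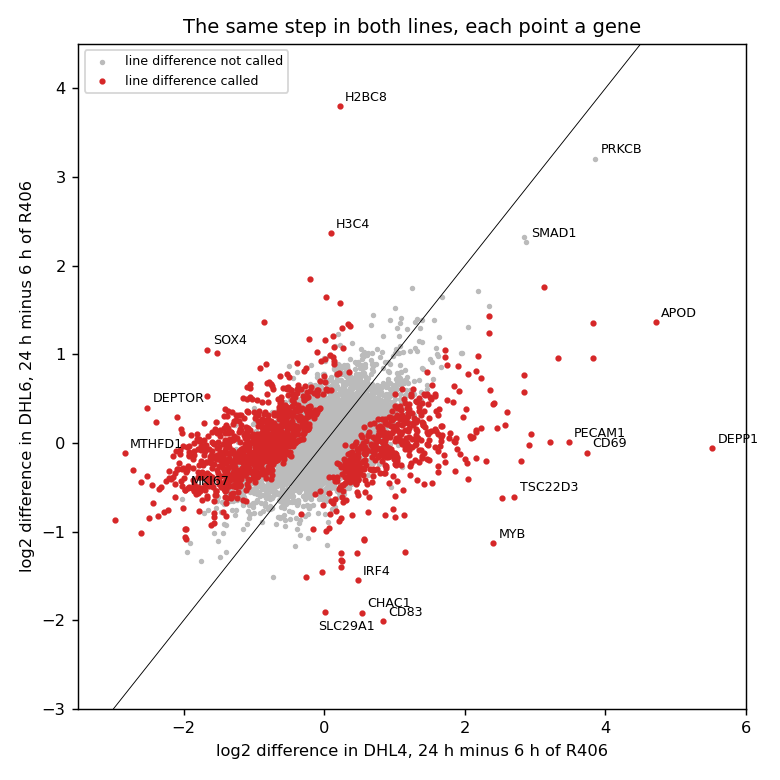
The log2 difference of 24 h minus 6 h of R406 in DHL4 (horizontal axis) against that in DHL6 (vertical axis) for all 12165 genes, with genes whose line difference was called in red and the line of equal change drawn. H2BC8 and H3C4 sit high at DHL4 values near 0, CD83, CHAC1 and IRF4 sit low, PRKCB lies near the line of equal change, and DEPP1 and CD69 lie far to the right at DHL6 values near 0.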

How the data were processed

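RNA of DHL4 and DHL6 cells was measured on 29 Affymetrix arrays. The deposited values were log2 expression per probe set, which the authors made with RMA, per the submitters' processing notes. This method subtracts background, equalises the distribution of the arrays and summarises the probes of each set. The RMA version, and whether all arrays were normalized in a single run, was not given in the sources used here. Of 22277 probe sets, 19724 had a single symbol in the platform annotation, and the brightest probe set over all arrays stood for each gene, leaving 12165 genes.

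Means of the 10 groups were fitted to all 29 arrays with limma 3.58.1 (lmFit and eBayes) in R 4.3.3, with 19 residual and 5.05 prior degrees of freedom. Contrasts were DHL6 24 h minus 6 h, the same in DHL4, and their difference. Adjusted p-values are Benjamini-Hochberg over all genes per contrast. The fit was tested on simulated data, where 93 of 100 genes changed by 1 log2 unit and 100 of 100 changed by 2 were recovered. It made 10 false calls among 12165 genes. The simulated noise was independent between genes and had 1 spread per gene on all arrays. No simulated array stood apart as 6 h replicate 3 did, so these rates need not hold for the real comparison. Precision is limited by 3 arrays a group.

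Genes named are the 14 largest called rises and falls without overlap, up to 4 called members each way of each of 59 lists (1117 of 1244 genes measured), the 6 largest line differences each way and 10 chosen genes (SYK, HRK, MYC, PRKCB, CDKN1B, GADD45A, MKI67, HMGCS1, BCL6 and BACH2). Uncalled genes and those so marked were added after their values were seen. The comparison, its members and the lists were chosen with earlier results of these data known. Alternatives were other normalizations, filters, probe set rules and sets of arrays, each array left out and the replicate number as a block. Promoter windows came from RefSeq on GRCh38.p14.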

Additional observations from a re-analysis of the deposited data

Results flagged for a closer look

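The change between 6 h and 24 h of R406 differed between DHL6 and DHL4 for 1366 genes by the limma test of the difference. Values are DHL6 minus DHL4 on the log2 scale. Histones differed upward, with H2BC8 at 3.58, H3C4 at 2.27, H2AC17 at 2.05, H3C12 at 1.62 and H2BC7 at 1.36. So did DEPTOR at 2.92, MTHFD1 at 2.72, SOX4 at 2.72, HTR3A at 2.62, ASF1A at 2.54 and MKI67 at 1.45.

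Differences downward were found for the NF-kB list members CD83 at -2.84, ICAM1 at -1.71, BCL2A1 at -1.58 and NFKBIE at -1.56, and for IRF4 at -2.02, SIAH2 at -1.64 and DUSP2 at -1.48. Amino acid stress genes differed likewise, CHAC1 at -2.45, PSAT1 at -1.42 and CTH at -1.25, as did the transporter SLC29A1 at -1.92. The remaining ones were DEPP1 at -5.58, CD69 at -3.85, MYB at -3.53, PECAM1 at -3.47, APOD at -3.35, TSC22D3 at -3.31, HRK at -2.07, MAD1L1 at -1.37 and CDKN1B at -1.24.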

How the results depend on the processing

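With only the 6 compared arrays in the fit, 101 genes were called higher and 117 lower, and with the 15 DHL6 arrays 208 and 180. Leaving out 1 array at a time gave 196 to 396 genes higher and 180 to 286 lower. Of the 24 h arrays, leaving out replicate 1 gave 220 and 201, replicate 2 gave 288 and 184, and replicate 3 gave 254 and 180. Without 6 h replicate 3 the split was 40.7% higher, against 56.6% with it. Quantile normalization gave 499 higher and 448 lower, and centring array medians 301 and 260. The count of line differences ran from 1118 to 1852 over its alternatives. Of 173 genes named by the rule, 164 were called, and none was called in the opposite direction under any alternative run. Uncalled genes near 0 could change sign, as CDKN1B did, from -0.04 to 0.14 without 6 h replicate 1. Their calls were lost most often with only the 6 arrays, for 84 genes. Leaving out 1 array at a time lost between 30 and 46 of these calls, with 42 lost without 6 h replicate 3, 32 without 6 h replicate 1 and 30 without 6 h replicate 2.

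Replicate numbers are shared between the times, but deviations of same-numbered arrays correlated at 0.17, -0.11 and 0.04, so the numbers were not taken as a pairing. With the replicate block 360 genes were called higher and 299 lower, the line difference for 1320, and 11 named genes lost their call. Signal near the low end limits falls that end below 3.5, 24 of the 308, and rises that start there, 46 of the 401.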

Other observations

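Other gene lists held few calls, beside 3.30% of all genes called higher and 2.53% lower. Of 17 germinal centre genes 4 rose and 1 fell, or 2 and 1 without 6 h replicate 3, and BCL7A, a chromatin remodelling subunit, was called at 0.75 only with that array. Of 25 chromatin and DNA methylation genes EZH2 fell, and HMGN2, a nucleosome-binding protein, fell by 0.32 with its call lost without that array. Of 11 NFAT and calcium-induced genes MYB fell, and NFATC3 (-0.54) lost its call without the array (limma adjusted p = 0.0525). Of 27 homing and G-protein genes ICAM1 fell and the integrin subunit ITGB1 was called higher (0.80), with overlapping arrays and no call without the array. Of 24 proteasome genes PSMD11, a lid subunit, was called at -0.52 and not without the array.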
